A study of Mus musculus with 5 samples.

Results

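The extracellular matrix genes described here are 59 of the 46983 gene rows in a count table of mouse Kupffer cells, the resident macrophages of the liver. They comprise 44 collagen chains, taken by the form of their symbols, and 15 further matrix genes: decorin, lumican, biglycan, Sparc, elastin, fibulin-5, laminin chains, lysyl oxidase, and metalloproteases with their inhibitors. Poly-A RNA of 5 samples was sequenced, 3 heterozygous for Id3 (labelled ID3+/-, replicates 1 to 3) and 2 without Id3 (labelled ID3-/-, replicates 2 and 3). Id3 is an inhibitor of DNA binding that holds E proteins away from their DNA sites. The controls had therefore also lost 1 copy of the gene. The sources used here give no strain, treatment or sort, and state no age, although the names of all count columns carry an unexplained "3w". Nothing in the labels ties the replicates to separate animals, so the tests rest on the spread between samples, some of which may be technical.

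Collagens are secreted as alpha chains that wind around each other into a helix. Fibrillar collagens give tissue its tensile strength, collagen IV forms the sheet of basement membranes, and other classes coat fibrils, link cells to the matrix or stay in the cell membrane. In the liver, hepatic stellate cells, portal fibroblasts and sinusoidal endothelium are known as the main makers of matrix, while macrophages are better known for metalloproteases and their inhibitors. Stellate cells produce fibrillar collagen in quantity when the liver scars.

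Counts on genes ranged from 74.8M to 80.9M per library. Entries that name no gene took 47.0% to 48.6% of the heterozygous and 40.0% to 42.9% of the knockout totals. Id3 itself was at 235.5 ± 18.1 CPM (read counts scaled to library size with TMM factors, SD, n = 3) in the heterozygous and 1.21 ± 0.29 CPM (SD, n = 2) in the knockout samples, so every library matched its label. Clec4f, Vsig4 and Timd4, which mark Kupffer cells, stood between 720.7 and 17237 CPM in all libraries. Each was lower in both knockout libraries than in any heterozygous one, as were 26.9% of all genes tested. Their knockout means were 84.3% to 87.1% of the heterozygous means.

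Matrix transcripts were on balance lower without Id3, while Mmp14, a membrane-bound metalloprotease that cuts collagen, was higher. Of the 59 members, 47 passed the filter on low counts and 12, all collagen chains, did not. Among the 47, 8 fell and 3 rose, where 16.4% of all genes tested changed in either direction (edgeR quasi-likelihood test, Benjamini-Hochberg adjusted p under 0.05 over 16436 genes). Lower calls made up 17.0% of the members tested, against 10.0% of all genes, and higher calls 6.38% against 6.41%. The median log2 fold change (knockout minus heterozygous) of the members tested was -0.50, against -0.02 over all genes tested. Both knockout libraries lay below all heterozygous ones for 18 members (38.3%, against 26.9% of all genes) and above them for 9 (24.6% of all genes). The 8 lower members were Col18a1, Col4a1, Col4a2, Col1a1, Col1a2, Col3a1, Col14a1 and Lamc1, and the 3 higher ones Mmp14, Col23a1 and Col10a1.

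The strength of these calls rested on the libraries used, as it did over all genes. Over all genes, 2698 were called with 5 libraries, against 463, 335 and 2540 without heterozygous replicate 1, 2 and 3, respectively. With 1 library left out at a time, Col18a1 passed all 5 times. Col4a1 and Mmp14 passed in 4 and missed narrowly without heterozygous replicate 2, at log2 fold changes of -0.71 and 1.19 (edgeR adjusted p = 0.0504 for both). Col1a1, Col3a1 and Lamc1 lost the call without heterozygous replicate 1, without heterozygous replicate 2 and without knockout replicate 2. Their log2 fold changes over the 5 fits ran from -2.04 to -1.18, from -0.94 to -0.78 and from -1.79 to -1.38. Col4a2 passed only without heterozygous replicate 3 (range -0.71 to -0.49), Col1a2 only without knockout replicate 2 (-1.73 to -0.82) and Col23a1 only without heterozygous replicate 3 (1.62 to 2.21). Col14a1 (-1.37 to -0.96) and Col10a1 (3.18 to 3.91) passed in none of these fits, so their calls depended on having all 5 libraries. Neither passed in limma-voom, and Col10a1 also missed in DESeq2. None of the 11 changed sign.

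**Figure D1:**
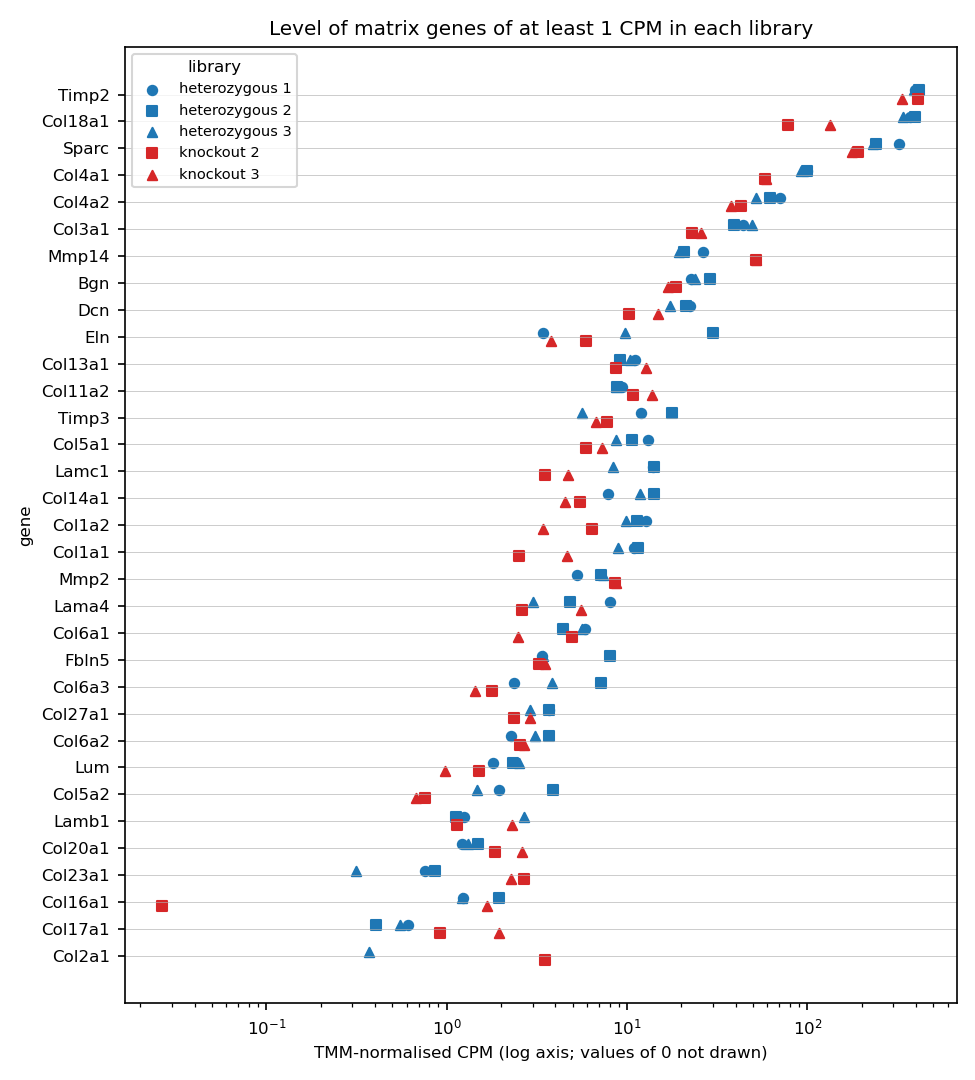
Level of each matrix gene with a group mean of at least 1 CPM, in TMM-normalised CPM on a log axis, with 1 point per library (blue heterozygous, red knockout, shapes for replicates). Timp2, Col18a1 and Sparc stand highest, the red points of Col18a1, Col4a1 and Col3a1 lie left of all blue ones, and those of Mmp14 lie right of them. Values of 0 are not drawn, which leaves out Col2a1 in 3 libraries.

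Per kilobase of transcript, Sparc, Timp2 and Col18a1 were the most abundant members in the heterozygous samples, with mean levels of 115, 108 and 65.5 CPM per kb. Col4a1 followed at 14.7, Col4a2 at 9.51, biglycan (Bgn) at 9.37, Col3a1 at 7.93 and Mmp14 at 6.82 CPM per kb. In the knockout samples Col18a1 stood at 18.8 and Mmp14 at 16.1 CPM per kb, ahead of Col4a1 at 8.84. Of the 59 members, 33 reached a mean of 1 CPM in either group. Among the 12 members of at least 10 CPM on average over the libraries, 4 were lower and 1 higher, where 14.7% of all genes at that level were lower and 11.9% higher.

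Col18a1, the chain of the basement membrane collagen XVIII whose end piece is endostatin, showed the lowest fold change of the well-expressed members. It stood at 369, 393 and 339 CPM in heterozygous replicates 1, 2 and 3, and at 77.9 and 133 CPM in knockout replicates 2 and 3. The groups were far apart, and knockout replicate 2 was the lowest library. The mean without Id3 came to 28.7% of that in heterozygotes, and the gene fell by 1.80 ± 0.23 on the log2 scale (SE, n = 3 and 2, edgeR adjusted p = 0.0104). Col18a1 made up 55.0% to 56.8% of all collagen counts in the heterozygous libraries, and 29.2% and 40.9% in knockout replicates 2 and 3. Summed over all collagen chains, the libraries held 680, 701 and 599 CPM (on library size) against 260 and 332 CPM, and without Col18a1 306, 303 and 270 against 184 and 196 CPM. The fall of the collagen sum was thus not from Col18a1 alone, as the remaining chains came to 64.9% of their heterozygous mean.

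Hepatocytes are known to make Col18a1, and the summed hepatocyte markers ordered these libraries in the same way. The sum of 10 hepatocyte markers was 20958, 23011 and 18945 CPM in the heterozygous libraries and 4376 and 10308 CPM in knockout replicates 2 and 3. Of these 10 markers, 7 were lower (70%, against 10.0% of all genes) and 3 not called. Alb, the albumin gene, changed by -1.82 on the log2 scale (edgeR adjusted p = 0.0279). The other defining markers did not pass: Ttr held 273, 283 and 292 CPM against 114 and 411 CPM, so its groups overlapped, and Apoa1 held 1740, 1995 and 1728 CPM against 556 and 1445 CPM (edgeR adjusted p = 0.163). None of the 3 was at 0 in any library. The part of hepatocyte RNA in the Col18a1 result was not tested. In bulk RNA of this kind, fewer cells of a type and less RNA per cell cannot be told apart.

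Collagen IV, the network-forming collagen of basement membranes, was represented by its widespread chains. Col4a1 held 99.6, 99.7 and 92.6 CPM in heterozygotes and 58.0 and 58.9 CPM without Id3. The knockout libraries were nearly equal and fell by 0.74 ± 0.09 on the log2 scale (SE, edgeR adjusted p = 0.00971). Its partner Col4a2 held 70.1, 62.3 and 51.6 CPM against 43.0 and 37.8 CPM, with no overlap and a log2 change of -0.60 ± 0.16 (edgeR adjusted p = 0.0485). This call missed the threshold under RLE scaling (edgeR adjusted p = 0.056), upper-quartile scaling (0.0619), library-size scaling (0.0543) and with no filter on low counts (0.0577). The count ratio of Col4a1 to Col4a2 was 1.42, 1.60 and 1.80 in heterozygotes and 1.35 and 1.56 without Id3, so the ranges of both groups overlapped. These genes lie head to head on chromosome 8 of GRCm38, where their RefSeq start sites face each other and their first exons share 22 bases. The minor chains Col4a3, Col4a4 and Col4a5 stayed between 0.0663 and 1.09 CPM and did not pass, and Col4a6 was not tested.

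Among the fibrillar collagens, the chains of collagens I and III fell. Col3a1, the collagen III chain, was the most abundant of them at 43.8, 39.4 and 49.1 CPM in the heterozygous and 22.8 and 25.6 CPM in the knockout libraries. Every knockout value was below every heterozygous one, and the log2 fold change was -0.87 ± 0.14 (SE, edgeR adjusted p = 0.0164). Col1a1, the main chain of collagen I, went from 11.0, 11.5 and 8.88 CPM to 2.52 and 4.63 CPM, a log2 change of -1.55 ± 0.31 (edgeR adjusted p = 0.0259). Col1a2, its partner, went from 12.8, 11.3 and 9.86 CPM to 6.38 and 3.41 CPM (-1.21 ± 0.31, edgeR adjusted p = 0.0457), and under RLE scaling it missed the threshold (edgeR adjusted p = 0.0503).

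The collagen I chains fell in both knockout libraries but not in step. Col1a1 was lower in knockout replicate 2 than in replicate 3, and Col1a2 the other way round. The count ratio of Col1a1 to Col1a2 was 0.859, 1.02 and 0.901 in the heterozygous libraries, and 0.395 and 1.36 in knockout replicates 2 and 3, on opposite sides of that range. Col5a1 and Col5a2, chains of the collagen V that nucleates fibrils, had log2 fold changes of -0.72 ± 0.23 and -1.77 ± 0.51. Neither passed (edgeR adjusted p = 0.0865 and 0.0655), although their groups did not overlap. Col27a1 (-0.38 ± 0.27) and Col11a2 (0.46 ± 0.18) did not pass either, and Col11a2 was the well-measured fibrillar chain with higher values in both knockout libraries, at 10.8 and 13.8 CPM against 8.66 to 9.37 CPM.

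**Figure D2:**
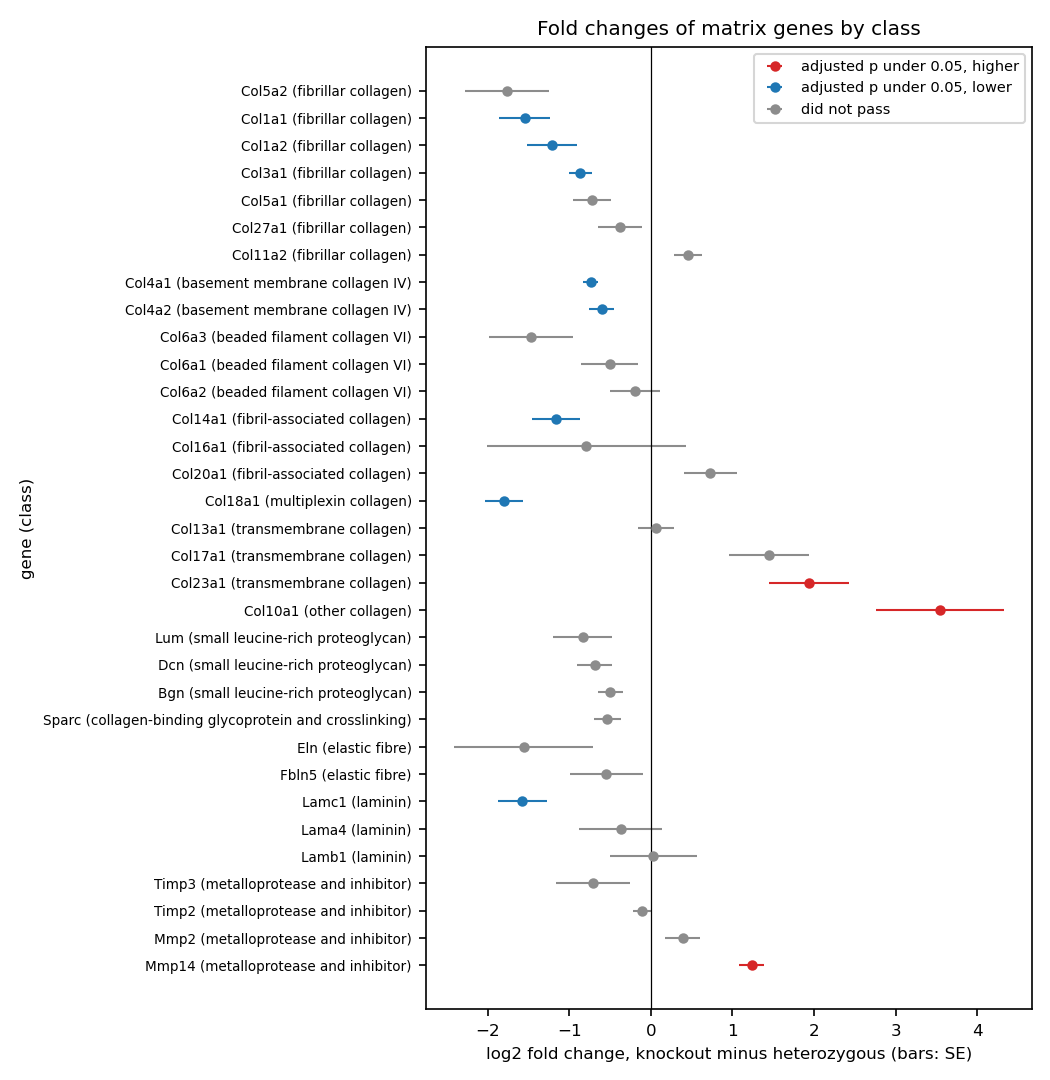
Log2 fold change (knockout minus heterozygous) with its SE for matrix genes, grouped by class. Drawn are the members that passed at an adjusted p under 0.05 or had a mean of at least 1 CPM in either group. Colours show whether they passed. Chains of the fibrillar collagens, collagen IV and the proteoglycans lie mostly left of 0, whereas Col17a1, Col23a1, Col10a1 and Mmp14 lie right of it. Col2a1 is left out because its SE of 2.31 would set the axis.

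Chains that attach to fibrils were mixed. Col14a1, which coats fibrils of collagen I, stood at 7.80, 14.2 and 11.8 CPM in the heterozygous and 5.49 and 4.54 CPM in the knockout libraries (log2 fold change -1.17 ± 0.29, edgeR adjusted p = 0.0447). Its groups did not overlap, though heterozygous replicate 1 was close to the knockout values. Col20a1 did not pass (0.73 ± 0.32), though both knockout libraries were above the heterozygous ones. Of collagen VI, the beaded filament that links cells to fibrils, Col6a1 (-0.50 ± 0.35), Col6a2 (-0.20 ± 0.30) and Col6a3 (-1.47 ± 0.51) did not pass. Heterozygous replicate 2 carried much of the Col6a3 difference, with 568 counts against 193 and 279 counts in the other heterozygous libraries, and 135 and 111 counts without Id3.

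Transmembrane collagens stay anchored in the cell surface. All 4 had a fitted log2 fold change above 0, that of Col13a1 turning to -0.081 with offsets for length and GC content, and 1 of them passed. For 3 of them both knockout libraries were above all heterozygous ones, as for 24.6% of all genes. Col23a1 stood at 0.755, 0.862 and 0.316 CPM in the heterozygous and 2.69 and 2.27 CPM in the knockout libraries, a log2 change of 1.94 ± 0.49 (SE, edgeR adjusted p = 0.0447). Its groups were well apart. Col17a1, known from hemidesmosomes of epithelium, held 0.406 to 0.609 CPM against 0.915 and 1.94 CPM and did not pass (edgeR adjusted p = 0.0951). Col13a1, at 9.19 to 11.1 CPM in the heterozygous and 8.71 and 12.7 CPM in the knockout libraries, overlapped between the groups (0.06 ± 0.22). Col25a1 rested on 5 counts in all in the heterozygous and on 12 and 36 counts in the knockout libraries and did not pass.

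Col10a1, a network collagen known from growth-plate cartilage, passed on very few reads. It had 1, 2 and 1 counts in the heterozygous and 20 and 13 counts in the knockout libraries. Scaled for library size, this is a ratio of 12.6 (95% exact counting interval 4.49 to 49.1), and the fitted log2 fold change was 3.54 ± 0.79 (edgeR adjusted p = 0.0333). At 0.217 CPM in the knockout mean it remained among the scarcest members tested. GENCODE places 18 bases of its exons over an exon of Nt5dc1 on the other strand, and the sources used here do not say whether the counting used strand.

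The small leucine-rich proteoglycans, which bind collagen fibrils and set their spacing, had lower values in the knockout libraries without passing. Decorin (Dcn) held 22.3, 21.2 and 17.4 CPM against 10.3 and 14.9 CPM, a log2 change of -0.69 ± 0.21 (edgeR adjusted p = 0.0748). Biglycan (Bgn) held 22.5, 28.7 and 23.7 CPM against 18.6 and 16.8 CPM (-0.50 ± 0.16, edgeR adjusted p = 0.0791). Lumican (Lum) stood at 1.80 to 2.53 CPM against 1.51 and 0.982 CPM (-0.83 ± 0.36, edgeR adjusted p = 0.164). For all 3, both knockout libraries lay below all heterozygous ones, as for 26.9% of all genes. Dcn has the lowest GC content of the members named, 37.4%, and its value moved to 0.081 (edgeR adjusted p = 0.784) once length and GC content were offset.

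Sparc, a glycoprotein that binds collagen and guides its deposition, was at 321, 240 and 232 CPM in the heterozygous and 190 and 176 CPM in the knockout libraries. The groups did not overlap, but heterozygous replicate 1 stood apart from the other two, and the log2 fold change of -0.53 ± 0.16 did not pass (edgeR adjusted p = 0.0712). Elastic fibre genes were dominated by 1 library. Elastin (Eln) stood at 29.9 CPM in heterozygous replicate 2 against 3.43 and 9.75 CPM in the other heterozygous and 5.93 and 3.81 CPM in the knockout libraries (-1.56 ± 0.85, edgeR adjusted p = 0.261). Fbln5, which tethers elastin to cells, was at 8.07 CPM in that same library and at 3.26 to 3.53 CPM in the other 4. Vwf, an endothelial gene of larger vessels, was also highest there, at 56.2 CPM against 1.72 to 8.08 CPM elsewhere. The other vascular endothelial markers did not follow it as a set. Plvap was highest there (64.5 CPM against 49.7 to 59.1 CPM), but Ackr1 was lowest there (5.80 CPM against 6.19 to 13.4 CPM). Selp and Ly6c1 were not highest there, and Sele had no counts in any library. The part of vessel endothelium in these values was not tested.

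Laminins are the other network of basement membranes. Lamc1, the gamma chain shared by most laminins, went from 14.0, 14.2 and 8.40 CPM to 3.49 and 4.70 CPM, a log2 change of -1.57 ± 0.31 (edgeR adjusted p = 0.024). The groups did not overlap, and heterozygous replicate 3 lay nearest to the knockout libraries. Lama4, an endothelial alpha chain, ranged over 3.01 to 8.08 CPM against 2.63 and 5.57 CPM (-0.37 ± 0.50), and Lamb1 over 1.13 to 2.68 CPM against 1.14 and 2.30 CPM (0.03 ± 0.53). Neither passed, and both overlapped between groups.

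Of the 5 metalloproteases and inhibitors, 1 rose, Mmp14, and 4 did not pass. Mmp14 stood at 26.2, 20.6 and 19.5 CPM in the heterozygous and at 51.98 and 52.2 CPM in the knockout libraries. The knockout libraries were nearly equal and above every heterozygous one, and the gene rose by 1.24 ± 0.15 on the log2 scale (SE, edgeR adjusted p = 0.00974). Mmp2, a gelatinase that Mmp14 is known to activate, was at 5.31 to 7.37 CPM against 8.61 and 8.73 CPM, without overlap, and did not pass (0.39 ± 0.21, edgeR adjusted p = 0.26). Timp2, the inhibitor that takes part in this activation, was the member with the highest CPM, at 397, 417 and 388 against 410 and 333 CPM. Its groups overlapped, and the log2 fold change of -0.11 ± 0.11 did not pass (edgeR adjusted p = 0.56). The count ratio of Timp2 to Mmp14 was accordingly 15.1, 20.3 and 19.9 in heterozygotes and 7.89 and 6.38 without Id3, with no overlap. Timp3 (-0.70 ± 0.45), which shares exon sequence with Syn3 on the other strand, and Timp1 (0.56 ± 1.09) did not pass.

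**Figure D3:**
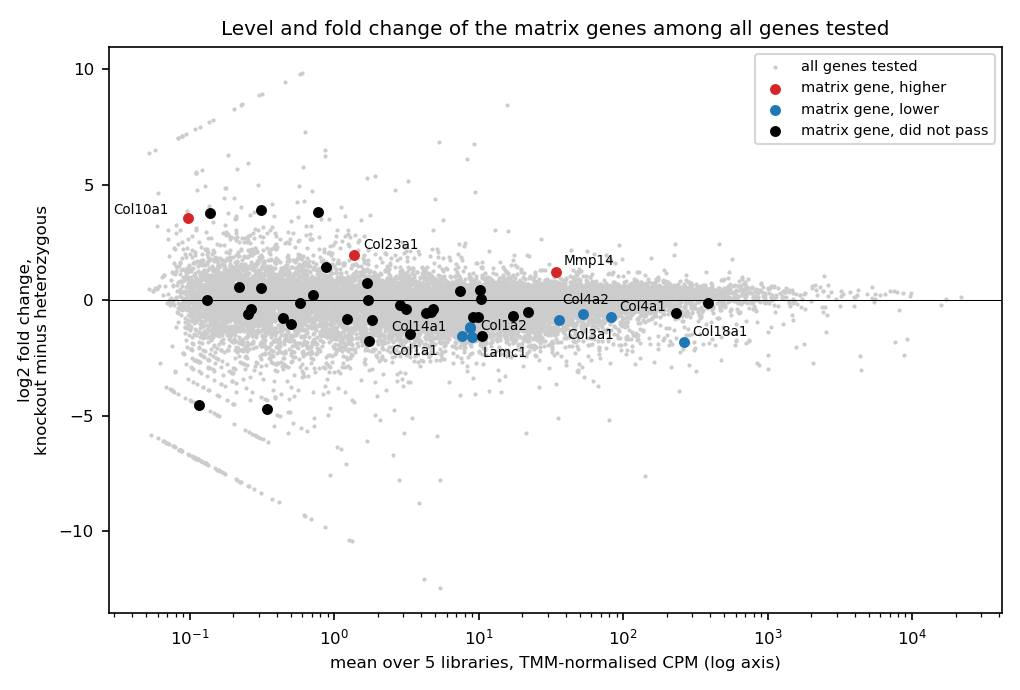
Mean level over the 5 libraries (TMM-normalised CPM, log axis) against log2 fold change for all 16436 genes tested (grey) and the 47 matrix genes tested (coloured by call, black where they did not pass). The lower calls lie between the levels of Col1a1 and Col18a1, whereas among the higher calls Mmp14 is well expressed and Col10a1 lies at the low end.

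Markers of the cells known to make matrix did not move as 1 block. Hepatic stellate cell markers summed to 129 to 147 CPM in the heterozygous and 119 to 124 CPM in the knockout libraries. Of these 14 genes, 3 were higher (21.4%, against 6.41% of all genes), 2 lower (14.3%, against 10.0%) and 9 not called. The higher ones were Pdgfrb, Bambi and Cygb, and the lower ones Rgs5 and Vipr1. Both knockout libraries lay above all heterozygous ones for 5 (24.6% of all genes) and below them for 5 (35.7%, against 26.9%). Lrat, the enzyme that stores vitamin A in stellate cells, was at 3.66, 4.13 and 5.60 CPM against 1.22 and 2.57 CPM and did not pass (edgeR adjusted p = 0.088). Its companions among the defining markers, Reln and Ngfr, were detected in all libraries at 7.79 to 13.5 and 0.133 to 0.494 CPM. The part of these cells in the collagen results was not tested.

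Sinusoidal endothelial markers summed to 1214 to 1494 CPM in the heterozygous and 1123 to 1130 CPM in the knockout libraries. Of 12 such genes, 5 were lower (41.7%, against 10.0% of all genes) and 7 not called. Both knockout libraries lay below all heterozygous ones for 8 (66.7%, against 26.9% of all genes). Among the lower ones, the knockout mean of Lyve1 was 21.7%, of Ptprb 34.1%, of Tek 53.9%, of Oit3 68.3% and of Cdh5 77.9% of the heterozygous mean. Stab2, at 371 to 401 CPM against 414 and 355 CPM, overlapped between the groups. Smooth muscle and myofibroblast markers summed to 20.3 to 24.9 against 14.4 to 18.3 CPM, with 4 of 6 genes tested and 4 not called, and Acta2 was at 3.87 to 4.61 against 3.14 and 3.20 CPM. Portal fibroblast markers summed to 40.7 to 48.6 against 69.9 to 90.5 CPM. Most of that sum was Gsn, which many cells express. Gsn was the 1 of 9 tested genes that rose (11.1%, against 6.41% of all genes). The defining Thy1, Mfap4 and Entpd2 stayed between 0.0974 and 1.44 CPM. Kupffer cell markers summed to 51109 to 51986 against 51894 to 56761 CPM, but did not move together. Of these 10 genes, 1 was higher (Marco) and 1 lower (C6), or 10% each, against 6.41% and 10.0% of all genes. Both knockout libraries lay below all heterozygous ones for 5 (50%, against 26.9%) and above them for 3 (24.6% of all genes). Neutrophil markers, at 92.3 to 116 against 194 to 462 CPM, were higher in the knockout libraries. Of 7 genes tested, 4 were higher (57.1%, against 6.41% of all genes), while Mmp8 and Retnlg had log2 fold changes of -0.21 and -0.07. Mmp9 made up most of the heterozygous sum, at 87.7 to 105 CPM. S100a8 and S100a9 were raised in both knockout libraries. S100a8 had 2915 and 1228 counts in knockout replicates 2 and 3, against 123 to 372 in the heterozygous libraries. S100a9 had 2471 and 992 counts against 3 to 32. Ngp, Camp and Ltf had 5905, 1330 and 3054 counts in knockout replicate 2, but 36, 4 and 0 in knockout replicate 3. Summed cholangiocyte and mesothelial markers were highest in knockout replicate 3, at 45.1 and 17.8 CPM, against at most 12.9 and 5.02 CPM elsewhere. The largest parts there were Krt7 (17.7 CPM) and Spp1 (15.9 CPM), and Msln (9.59 CPM) and Upk3b (6.85 CPM). Sox9, Wt1, Lrrn4 and Gpm6a were not highest in that library. None of the 6 cholangiocyte markers was called. Of 3 mesothelial markers tested, Upk3b was higher (33.3%, against 6.41% of all genes). Acta2, Myh11, Tagln, Stab2, Thy1, Mfap4 and Entpd2 were above 0 in every library, and the part of these cells in the matrix results was not tested.

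**Figure D4:**
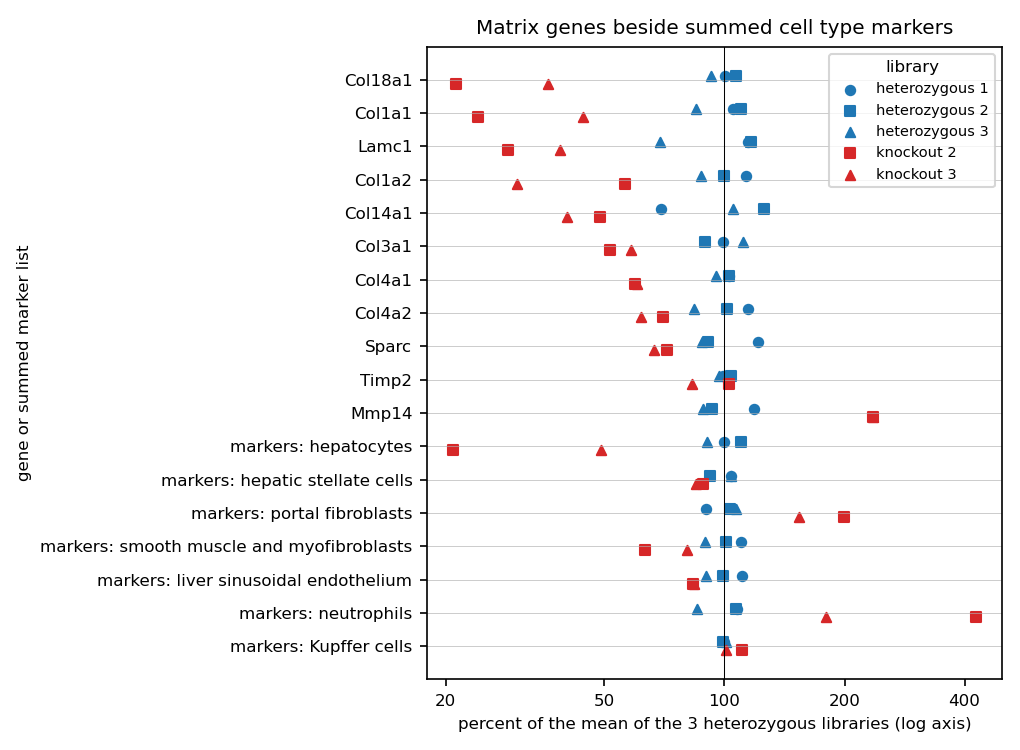
Level of 11 matrix genes and of 7 summed marker lists in each library, as a percent of the mean of the 3 heterozygous libraries (log axis, 1 point per library). In knockout replicate 2 the hepatocyte sum (20.9%) and Col18a1 (21.2%) lie lowest, in knockout replicate 3 Col1a2 (30.1%) and Col18a1 (36.2%) do and the hepatocyte sum lies at 49.2%, Col4a1 lies near 60% (59.6 and 60.5%), the stellate and sinusoidal sums lie at 83.3 to 88.2%, and Mmp14 lies at 235 and 236%.

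Genes that build, assemble, bind or cut the matrix gave calls near the share over all genes. Of 100 such genes tested, 13 were lower and 4 higher (10.0% and 6.41% over all genes), with a median log2 fold change of -0.21. Among 26 genes of collagen folding, processing and crosslinking, 3 were lower and 1 higher (median 0.01). Bmp1, which trims the ends of procollagen, changed by -1.39 ± 0.25, P4ha1, a prolyl hydroxylase subunit, by -0.54 ± 0.10, and Mia3, a procollagen export factor, by -1.06 ± 0.27. Colgalt1, which puts galactose on collagen, rose by 0.48 ± 0.09 (edgeR adjusted p = 0.0242), and P4hb, at 1510 to 1629 against 1428 and 1445 CPM, did not pass.

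Other matrix proteins gave 4 lower and 1 higher of 30 tested (13.3% and 3.33%, against 10.0% and 6.41% of all genes). Hspg2, the core of the basement membrane proteoglycan perlecan, went from 20.5, 24.9 and 18.3 CPM to 7.65 and 8.46 CPM (-1.40 ± 0.19, edgeR adjusted p = 0.011), and Nid1, which links laminin to collagen IV, fell by 0.92 ± 0.21 (edgeR adjusted p = 0.0346). The plasma proteins Fn1 and Vtn, which hepatocytes secrete, changed by -2.10 ± 0.25 and -1.78 ± 0.27 in libraries with lower hepatocyte sums (above), and that part was not tested. Efemp2, an elastic fibre protein, rose by 0.42 ± 0.10, while Ecm1 (0.39 ± 0.13) did not pass.

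Of 22 matrix receptors tested, 5 were lower (22.7%, against 10.0% of all genes) and 17 not called, with a median of -0.29. The number higher was 0, against 6.41% of all genes. Both knockout libraries lay below all heterozygous ones for 10 receptors (45.5%, against 26.9% of all genes). Itgb1, the beta chain of most collagen and laminin receptors, went from 291, 382 and 270 CPM to 181 and 160 CPM (-0.88 ± 0.17, edgeR adjusted p = 0.0234). Its collagen-binding partner Itga1 changed by -2.22 ± 0.47, and Mrc1, the mannose receptor that also takes up collagen, by -1.36 ± 0.17. The remaining lower receptors were the collagen receptor Ddr2 (-1.48 ± 0.31) and Itga9 (-0.48 ± 0.11). Itgb5, at 1093 to 1130 against 1565 and 1166 CPM, did not pass. Among 22 further proteases and inhibitors, 2 were higher (9.09%, against 6.41% of all genes) and 1 lower (4.55%, against 10.0%). Plaur, the urokinase receptor (1.29 ± 0.13, edgeR adjusted p = 0.0061), and the gelatinase Mmp9 (1.08 ± 0.21) rose. Mmp15 changed by -2.03 ± 0.35, and Ctsl (0.15 ± 0.09) did not pass. Mmp9 is also abundant in neutrophils, whose marker sum, given above, includes it.

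The upstream sequence of the called members is shown because Id3 acts through E proteins, which bind the E-box CANNTG. RefSeq promoters (GRCm38.p6) were found for 43 of the 59 members and for 8 of the 11 called, Col14a1, Col1a1 and Lamc1 being without an entry. The 4 windows printed here, 250 bases up to the start site, are those of called members that overlap no exon annotated in GENCODE M21. E-boxes are in capitals.
Mmp14 (chr14:54431348-54431597, plus strand): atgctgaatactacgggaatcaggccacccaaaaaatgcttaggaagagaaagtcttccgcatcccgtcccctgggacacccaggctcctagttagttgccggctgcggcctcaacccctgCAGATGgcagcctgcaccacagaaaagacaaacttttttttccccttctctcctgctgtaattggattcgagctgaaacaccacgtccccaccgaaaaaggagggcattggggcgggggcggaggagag
Col23a1 (chr11:51289670-51289919, plus strand): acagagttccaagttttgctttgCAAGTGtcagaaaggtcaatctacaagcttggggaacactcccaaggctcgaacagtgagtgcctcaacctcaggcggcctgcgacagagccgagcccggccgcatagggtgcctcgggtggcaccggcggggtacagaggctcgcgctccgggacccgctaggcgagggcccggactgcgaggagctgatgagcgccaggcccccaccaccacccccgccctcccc
Col10a1 (chr10:34389731-34389980, plus strand): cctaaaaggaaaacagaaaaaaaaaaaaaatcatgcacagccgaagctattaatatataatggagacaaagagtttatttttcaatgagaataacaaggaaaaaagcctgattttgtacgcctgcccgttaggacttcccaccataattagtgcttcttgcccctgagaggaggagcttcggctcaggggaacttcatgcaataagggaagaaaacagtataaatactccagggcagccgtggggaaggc
Col3a1 (chr1:45311288-45311537, plus strand): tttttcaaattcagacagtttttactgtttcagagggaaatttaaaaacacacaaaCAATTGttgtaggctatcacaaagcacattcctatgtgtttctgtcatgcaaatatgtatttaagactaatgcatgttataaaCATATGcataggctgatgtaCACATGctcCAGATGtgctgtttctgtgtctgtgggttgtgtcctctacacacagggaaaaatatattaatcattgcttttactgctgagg
Mmp14 holds 1 E-box, which begins 129 bases before the start, Col23a1 holds 1 at 227 bases before it, and Col3a1 holds 4, while Col10a1 has no match in this window. The other 5 windows of called members, those of Col1a2, Col4a1, Col4a2 and both Col18a1 starts, hold none either, so 3 of 9 called windows have a match. Searched on both strands, CANNTG occurred in 26 of 47 member windows (55.3%) and in 66.2% of all 32851 promoter windows of this length. The narrower forms CAGGTG and CAGCTG, each contained in CANNTG, occurred in 6 (12.8%, against 17.2%) and 9 (19.1%, against 13%) member windows. The GC box GGGCGG occurred in 29 member windows (61.7%, against 32.7%). These matches are letters in a window and show no binding. For Col18a1, RefSeq lists 2 start sites on chromosome 10, whose transcripts the gene count does not separate. In GENCODE, exons of Timp3, Eln, Lox, Col5a1, Col4a1, Col4a2, Col4a3, Col9a3, Col10a1, Col15a1, Col6a4, Col6a6 and Col22a1 overlap exons on the other strand. Those of Col3a1, Col20a1 and Col7a1 overlap an annotated gene on their own strand, by 141, 79 and 36 bases. Reads there could have been counted for either gene or for none.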

How the data were processed

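Poly-A RNA of 5 Kupffer cell samples was amplified with a SMART-seq V4 kit, per the labels' protocols. The authors deposited raw read counts per gene, for which the submitters' processing notes name HTSeq 0.5.4, DESeq 1.18.0, R 3.1.2 and mm9. Aligner, annotation release and strand: not given in the sources used here. Entries that name no gene (40.0% to 48.6% of everything counted) were left out. Genotypes were compared by the quasi-likelihood test of edgeR 4.0.16 under R 4.3.3 (TMM factors, filterByExpr, knockout minus heterozygous, 5 samples, no covariate), with Benjamini-Hochberg adjustment over 16436 genes. Levels are TMM-normalised CPM, and sums over genes are CPM on library size, given without a test. SE is the log2 fold change divided by the square root of F. Lengths and GC content are those of the longest GENCODE M21 transcript, matched for 46488 of 46983 genes, and since this release belongs to a later build than mm9, the build of the counts is uncertain. A gene with 0 counts allows up to 3 counts, or 0.0371 to 0.0401 CPM, which like the exact interval covers counting error only.

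The members, the lists of companion genes and of cell type markers, and the tests were chosen with earlier results of these data known. Named were all members that passed, other tested members of at least 1 CPM in either group, and in each companion list up to 3 passing genes per direction by p and the most abundant other. Nid1, Ddr2, Itga9 and the scarcer members given by counts were named after their values were seen. Alternatives were DESeq2 1.42.0, limma-voom 3.58.1, other scalings and filters, a replicate block, leaving out each sample, and offsets for length and GC content (natural splines fitted per sample to log2 CPM). The tests were tried on simulated data.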

Additional observations from a re-analysis of the deposited data

How the results depend on the processing

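The count of lower matrix genes, 8, became 14 with DESeq2 (adding Bgn, Dcn, Sparc, Col5a1, Col5a2 and Col6a3), 5 with no filter on low counts and 5 with offsets for length and GC content; the count of higher ones, 3, stayed between 2 and 3 under these. Without the filter, Col4a2 (edgeR adjusted p = 0.0577), Col14a1 (0.0504), Col1a2 (0.0514) and the higher Col10a1 (0.0669) missed the threshold. The offsets removed the calls of Col3a1 (-0.73, edgeR adjusted p = 0.0523), Col1a2 (-1.16, 0.0531) and Col14a1 (-0.87, 0.11). Over all 100 companion genes (assembly, other matrix proteins, receptors, proteases), 4 higher became 9 with DESeq2 and 7 with a filter of 1 CPM in 2 samples, and 13 lower became 20 with DESeq2 and 6 with the offsets. Leaving out 1 sample gave 0 to 2 higher and 1 to 7 lower matrix genes, and 1 to 6 higher and 3 to 11 lower companion genes. The 0 arose without heterozygous replicate 2, where 4 matrix genes were higher at an unadjusted p under 0.05. With 1 knockout sample left, that sample was assumed to vary like the others. Adding the replicate number as a replicate block left 1 gene called among all 16436 tested, and 0 higher and 0 lower in both lists (edgeR). At an unadjusted p under 0.05, 5 matrix genes were higher and 14 lower with the block, against 7 and 15 without it. Deviations from the group mean correlated between same-numbered samples at r = -0.03 for replicate 2 and -0.06 for replicate 3, across genes. The deviations of the 2 knockout samples mirror each other, so these values cannot decide whether the numbers mark pairs. The main fit used no block. Over all genes, upper-quartile scaling gave 1443 higher and 1499 lower, against 1054 and 1644. DESeq2 gave 2037 and 2520, no filter on low counts 843 and 1439, and the offsets 730 and 779. No called matrix gene changed sign under these alternatives. Of those that did not pass, signs differed among the fits without 1 sample for Fbln5 (-0.76 to 0.0041), Col16a1 (-5.70 to 0.18), Col2a1 (-6.28 to 4.84), Lama4 (-1.002 to 0.070), Lamb1 (-0.55 to 0.53), Timp2 (-0.27 to 0.045) and Col13a1 (-0.22 to 0.31). The sign also turned with the block for Lama4 (0.011) and Lamb1 (-0.10), and with the offsets for Dcn (0.081) and Col13a1 (-0.081). The cause was not tested. Members under 1 CPM rest on few counts, and a change in them was often not detectable at this depth.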

Other observations

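Several scarce matrix genes were detected unevenly across the libraries. Col2a1, the cartilage fibril collagen, had 264 counts in knockout replicate 2, 27 in heterozygous replicate 3 and 0 in the other 3 libraries. Col16a1 had 2 counts in knockout replicate 2 and 89 to 154 in the other 4. Lox, which crosslinks collagen and elastin, had 92 and 36 counts in heterozygous replicates 2 and 3, 3 in knockout replicate 3 and 0 in the remaining 2. Col9a3 and Col15a1 had 80 and 32 counts in knockout replicate 2 and 2 each in knockout replicate 3. Col9a2, a cartilage collagen chain, had 67 and 41 counts in the knockout libraries, 11 in heterozygous replicate 1 and 0 in the other heterozygous ones, and did not pass (edgeR adjusted p = 0.127), though limma-voom called it.

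Of the 12 collagen chains that were not tested, 6 had no count in any library (Col6a4, Col9a1, Col11a1, Col22a1, Col26a1 and Col28a1). Col4a6, Col6a5, Col6a6, Col8a2, Col19a1 and Col24a1 had at most 22 counts in a library. The matrix genes tested had longer transcripts than all genes tested (median 5564 against 2964 bases) and a higher GC content (median 54.5% against 49.9%).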
